A study of Mus musculus with 4 samples.

Results

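The 10 genes described here belong to the Notch pathway: the receptors Notch1, Notch2 and Notch3, the ligands Dll1, Dll3, Dll4 and Jag1, and the target genes Hes1, Hes5 and Hey1. They were listed by name, with earlier results of these data known, and are 10 of the 55602 genes in the bulk expression table. All of them were found in that table by gene identifier and all passed the filter on low counts. The study asked how loss of ZFP57, a zinc finger protein that maintains methylation at imprinting control regions, alters gene expression in neural precursor cells (NPCs) derived from mouse ESCs. The JB1 ESCs are male F1 hybrids of a JF1 female and a C57BL/6 (B6) male, and the Zfp57-/- cells are a knockout line derived from them. RNA was sequenced from 2 wild-type and 2 Zfp57-/- cultures, labelled as biological duplicates of NPCs. Both genotypes had been kept as ESCs with the Gsk3 inhibitor CHIR99021 at 3 µM, then differentiated for 12 days in a defined medium with 1 µM cyclopamine, a hedgehog pathway inhibitor, from day 2 to day 10. Each genotype is 1 cell line, so the genotype and the line cannot be told apart.

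Notch signalling passes between neighbouring cells. A Delta or Jagged ligand on one cell binds a Notch receptor on the next, the receptor is cleaved by ADAM proteases and gamma-secretase, and its intracellular domain joins RBPJ in the nucleus to switch on Hes and Hey repressor genes. In the developing cortex, newborn neurons and committed precursors carry Dll1 under the control of proneural factors, while the Hes genes keep neighbouring progenitors dividing.

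Promoter sequences were taken from RefSeq on GRCm38.p6, where 9 promoters were matched to 8 of the 10 genes, all but Hes1 and Hey1. Each window of 300 bases, from 250 bases before the transcription start to 50 after it, was searched on both strands for TGGGAA, the core of the RBPJ motif, which reads as TTCCCA when it lies on the opposite strand, and for CAGCTG, an E-box of the type bound by proneural factors, which reads the same on both strands. The Hes5 window was the only one of the 9 with TGGGAA. It held 2 copies, the first 226 bases before the start in the reverse orientation and the other 82 bases before it. Of all 32851 RefSeq promoters, 25.6% held at least 1 TGGGAA and 3.79% at least 2. CAGCTG stood 132 bases before one of the starts of Dll1, 7 bases before the start of Dll3 and 82 bases before that of Jag1, and 16.3% of all promoters held it. These are matches of letters, and binding was not measured. The 250 bases before the start are shown for these 4 genes because Hes5 had the largest fold change of the 10 genes and the other 3 are the ligands with an E-box, and capitals mark the motifs.
Hes5, plus strand, chr4:154960673-154960922: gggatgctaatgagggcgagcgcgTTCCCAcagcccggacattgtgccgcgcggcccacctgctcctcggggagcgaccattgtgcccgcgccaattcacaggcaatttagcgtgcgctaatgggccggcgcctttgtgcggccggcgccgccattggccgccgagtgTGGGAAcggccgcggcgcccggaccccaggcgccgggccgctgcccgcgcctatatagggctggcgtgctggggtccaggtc
Dll1, minus strand, chr17:15376933-15377182: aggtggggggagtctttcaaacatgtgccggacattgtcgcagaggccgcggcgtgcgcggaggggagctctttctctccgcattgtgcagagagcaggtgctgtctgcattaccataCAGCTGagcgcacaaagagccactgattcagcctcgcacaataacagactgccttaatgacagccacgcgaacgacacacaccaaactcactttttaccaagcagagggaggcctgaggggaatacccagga
Dll3, minus strand, chr7:28301786-28302035: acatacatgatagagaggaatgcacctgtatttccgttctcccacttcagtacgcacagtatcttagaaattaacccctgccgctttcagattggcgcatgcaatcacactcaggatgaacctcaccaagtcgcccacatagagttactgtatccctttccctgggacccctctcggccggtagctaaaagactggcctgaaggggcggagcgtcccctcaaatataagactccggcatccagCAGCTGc
Jag1, minus strand, chr2:137116521-137116770: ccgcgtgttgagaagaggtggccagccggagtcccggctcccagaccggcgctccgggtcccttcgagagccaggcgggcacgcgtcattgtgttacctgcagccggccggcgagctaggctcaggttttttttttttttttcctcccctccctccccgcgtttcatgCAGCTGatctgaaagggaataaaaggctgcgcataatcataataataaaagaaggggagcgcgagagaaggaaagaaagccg

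The bulk table holds counts of fragments per gene, which summed to between 7663520 and 10337082 per library. The genotypes were compared by edgeR's quasi-likelihood test over the 19995 genes with more than 8 counts in all, with Benjamini-Hochberg adjustment over all of them and a threshold of 0.05. In Zfp57-/- cells 2915 genes (14.6%) were lower and 2607 (13%) higher, and the median log2 fold change was -0.01. For Zfp57 itself 392 and 249 counts were assigned in wild-type libraries, against 158 and 144 in Zfp57-/- libraries (log2 fold change -1.19 ± 0.32 SE, adjusted p = 0.0225). These counts cover the whole gene, including exons outside the deletion, and so are not a check of the deleted part. The wild-type libraries differed more from each other than the Zfp57-/- libraries did, with a median replicate SD of 0.26 against 0.12 on the log2 scale. Of the 10 Notch genes, 8 had higher counts-per-million values (CPM, with library sizes scaled by TMM factors) in wild-type replicate 1 than in replicate 2, all but Hes1 and Hes5.

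The libraries also differed in markers of cell type, and the part of these in the results below was not tested. The marker counts stand beside 14.6% lower and 13% higher over all genes tested. Of 10 neural progenitor markers 7 were lower in Zfp57-/- cells, with summed levels of 887 and 906 CPM in wild-type and 436 and 452 CPM in Zfp57-/- libraries. Nes and Sox2 were the most abundant of them, and Nes fell by 0.91 on the log2 scale (adjusted p = 0.00524) while Sox2 was at 0.49 (adjusted p = 0.0881). In the Zfp57-/- sums Nes made up 190 and 195 CPM and Sox2 144 and 168 CPM. The median log2 fold change of the 10 markers was -2.16, with a range from -6.98 to 0.49. Of 10 neuronal markers, led by Map2 and Tubb3, 9 were lower, with summed levels of 1712 and 2197 CPM against 261 and 214 CPM. All 8 pluripotency markers, led by Pou5f1 and Tdgf1, were higher, at 4.58 and 8.21 CPM against 1493 and 1305 CPM. Of 7 glial markers 3 were higher and 1 lower, with no more than 26.1 CPM in any library, and Aldh1l1 and Olig1 were the most abundant. The endothelial list, led by Flt1 and Cdh5, had 3 of 10 markers higher and 1 lower, and its sums overlapped between genotypes, at 361 and 250 CPM against 267 and 316 CPM. Of the 10 mural and mesodermal markers, led by Pdgfra and Acta2, 9 passed the filter on low counts and 3 of these were higher. The sums were 487 and 530 CPM against 1031 and 1092 CPM. The 3 that rose were Acta2, Tagln and T, and the other 6 did not pass the test. Acta2 had 38.5 and 111 CPM against 447 and 432 CPM, and Tagln 15.4 and 49.3 CPM against 253 and 211 CPM. Tagln and T were named after their values were seen. Pdgfra was at -0.53 on the log2 scale (adjusted p = 0.126) and Acta2 at 2.55 (adjusted p = 0.00131). Of the 8 endodermal markers, led by Gata4 and Sox17, 1 was higher, near the share over all genes tested. The sums were 354 and 521 CPM against 555 and 799 CPM. No marker on these lists was at 0 in all 4 libraries, and the Zfp57-/- libraries carried pluripotency markers beside neural progenitor markers under their label of NPCs. In bulk RNA, fewer cells of a type and less RNA per cell cannot be told apart.

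Of the 10 Notch genes, 8 fell in Zfp57-/- cells and 2 (Notch2 and Hes1) did not pass the test, against 14.6% lower and 13% higher over all genes tested (27.6% in either direction). None rose, whether by edgeR, at an unadjusted p under 0.05 (0 genes) or by DESeq2 (0 genes). The calls of 5 of the 8 genes (Notch1, Dll1, Dll3, Jag1 and Hes5) held in all 12 alternative fits, in 4 of which 1 library was left out. The 4 ligands all fell, as did 2 of the 3 receptors and 2 of the 3 targets. The median log2 fold change was -2.46 for the ligands, -0.91 for the receptors and -0.94 for the targets, and -1.30 for the 10 genes. The normalized levels of the 2 Zfp57-/- libraries were both below those of both wild-type libraries for 9 of the 10 genes, all but Hes1, and 32.6% of all genes tested showed this, while 66.3% did not overlap in one direction or the other.

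**Figure D1:**
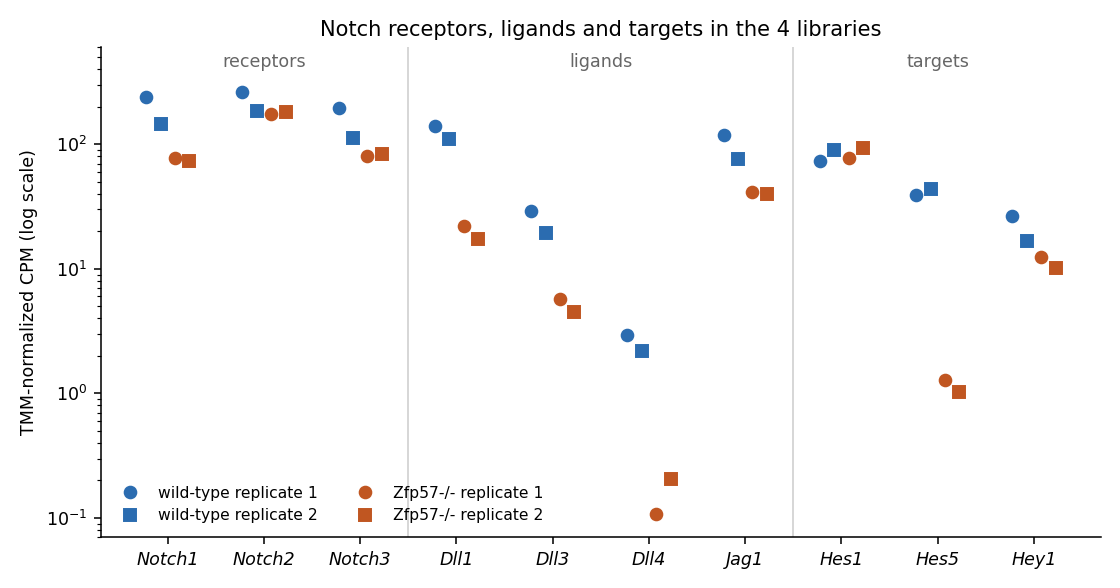
TMM-normalized CPM (log scale) of the 10 Notch genes in each of the 4 libraries, blue for wild-type and orange for Zfp57-/-, circles for replicate 1 and squares for replicate 2. The orange points lie below both blue points for every gene but Hes1, and the distance is widest for Hes5 and Dll4.

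The receptors are large single-pass membrane proteins that are cleaved on ligand binding. Notch1, a receptor of cortical progenitors (chr2:26457903-26516663, minus strand), had 1928 and 1537 counts in wild-type libraries, against 720 and 724 in Zfp57-/- libraries, or 193 ± 65.1 CPM (SD, n = 2) against 75.6 ± 2.32 CPM (n = 2). The groups did not overlap, and Notch1 fell by 1.35 on the log2 scale (SE 0.25, adjusted p = 0.00311), to 39.3% of the wild-type level. The log2 fold change of Notch1 was -0.98 without wild-type replicate 1 and -1.66 without wild-type replicate 2. With a correction for gene length it was -0.99. Notch3, which is also expressed in mural cells (chr17:32120820-32166880, minus strand), had 1586 and 1186 counts in wild-type libraries, against 755 and 818 in Zfp57-/- libraries. The log2 fold change of Notch3 was -0.91 (SE 0.26, adjusted p = 0.0263), or 53.2% of the wild-type level. This call was lost without Zfp57-/- replicate 1 (adjusted p = 0.140), without Zfp57-/- replicate 2 (adjusted p = 0.111) and with a correction for gene length (adjusted p = 0.0526). Without wild-type replicate 1 the log2 fold change of Notch3 was -0.49 and without wild-type replicate 2 it was -1.26.

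Notch2, a widely expressed receptor (chr3:98013527-98150361, plus strand), did not pass the test. Its counts were 2140 and 1956 in wild-type libraries, against 1629 and 1775 in Zfp57-/- libraries, or 226 ± 55.3 CPM (SD, n = 2) against 178 ± 4.65 CPM (n = 2). The CPM of the groups did not overlap, but wild-type replicate 2, at 187 CPM, lay close to the Zfp57-/- libraries at 175 and 181 CPM. The log2 fold change was -0.34 (95% confidence interval -0.82 to 0.14, adjusted p = 0.268), so that a fall of up to 0.82 lies within the interval. Without wild-type replicate 2 the log2 fold change of Notch2 was -0.58 and passed the test (adjusted p = 3.22e-05), whereas without wild-type replicate 1 it was -0.095 (adjusted p = 0.599) and with the gene-length correction -0.11 (adjusted p = 0.756).

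Among the ligands, Dll1, which is carried by committed precursors and newborn neurons (chr17:15367354-15376872, minus strand), had 1127 and 1148 counts in wild-type libraries, against 204 and 169 in Zfp57-/- libraries. These are 125 ± 21.2 CPM (SD, n = 2) and 19.6 ± 3.27 CPM (n = 2), with no overlap. Dll1 fell by 2.67 on the log2 scale (SE 0.23, adjusted p = 3.1e-05), to 15.7% of the wild-type level. Dll3, a divergent Delta protein that acts inside the cell rather than as an activating ligand (chr7:28293553-28302238, minus strand), had 235 and 202 counts against 53 and 44. Its log2 fold change was -2.24 (SE 0.31, adjusted p = 0.000637), and both Zfp57-/- libraries, at 5.69 and 4.5 CPM, were far below the wild-type libraries at 29.1 and 19.3 CPM.

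Dll4, best known as the Delta ligand of sprouting blood vessels (chr2:119325784-119335962, plus strand), was the least abundant of the 10 genes, with 24 and 23 counts in wild-type libraries, against 1 and 2 in Zfp57-/- libraries. With so few counts, the ratio of wild-type to Zfp57-/- was 16.1 with a 95% counting interval of 5.19 to 81.0, and the test gave an adjusted p of 0.0068. Without Zfp57-/- replicate 1 the call was lost (adjusted p = 0.0736). Jag1, a ligand of the Jagged family (chr2:137081456-137116644, minus strand), had 953 and 797 counts in wild-type libraries, against 388 and 390 in Zfp57-/- libraries, or 97.0 ± 29.6 CPM (SD, n = 2) against 40.8 ± 1.26 CPM (n = 2). The groups did not overlap, and Jag1 fell by 1.25 on the log2 scale (SE 0.24, adjusted p = 0.00382).

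The 3 target genes encode repressors of the basic helix-loop-helix family. Hes5, a direct Notch target of neural progenitors whose promoter is shown above (chr4:154960923-154962371, plus strand), had 317 and 459 counts in wild-type libraries, against 12 and 10 in Zfp57-/- libraries, or 41.5 ± 3.23 CPM (SD, n = 2) against 1.16 ± 0.19 CPM (n = 2). Hes5 fell by 5.16 on the log2 scale (SE 0.30, adjusted p = 4.6e-06), to 2.81% of the wild-type level. It passed the test in every alternative run, including without each library in turn.

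Hes1, which is controlled by Notch and by other signals and is also expressed in ESCs (chr16:30064384-30067796, plus strand), had 590 and 943 counts in wild-type libraries, against 719 and 915 in Zfp57-/- libraries. These are 81.5 ± 12.0 CPM (SD, n = 2) and 85.4 ± 11.6 CPM (n = 2), and the groups overlapped, with replicate 2 above replicate 1 in both genotypes. The log2 fold change of Hes1 was 0.07 (95% confidence interval -0.39 to 0.52, adjusted p = 0.843), an interval that reaches neither the fall of Hes5 nor that of Notch1. When libraries were scaled to Actb, which had 14634 and 37665 counts in wild-type libraries, against 35070 and 39257 in Zfp57-/- libraries, the median of all genes moved to -0.68 and Hes1 stood at -0.57, which is 0.11 above that median. Hey1, a target in neural and vascular cells (chr3:8663359-8667256, minus strand), had 216 and 176 counts in wild-type libraries, against 116 and 99 in Zfp57-/- libraries, without overlap. Its log2 fold change was -0.94 (SE 0.29, adjusted p = 0.0385), and the call was lost without Zfp57-/- replicate 1 (adjusted p = 0.115) or replicate 2 (adjusted p = 0.271). Without wild-type replicate 1 the log2 fold change of Hey1 was -0.60.

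**Figure D2:**
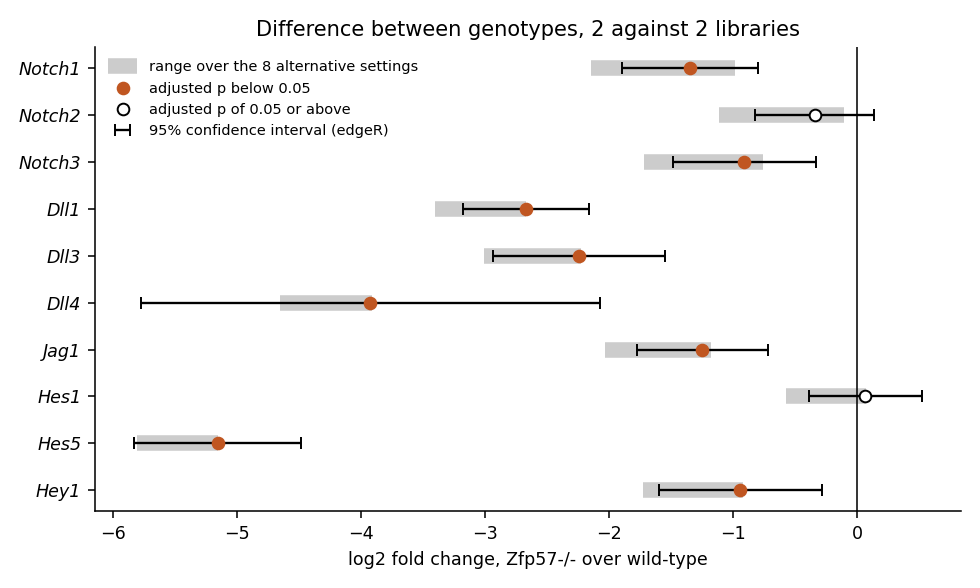
Log2 fold change (Zfp57-/- over wild-type) of the 10 Notch genes with the 95% confidence interval of edgeR's test, filled where the adjusted p was below 0.05, with a grey bar over the range of 8 alternative settings that keep all 4 libraries. Hes5 at -5.16 and Hes1 at 0.07 mark the ends of the range, and the intervals of Notch2 and Hes1 include 0.

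Levels of different genes were compared per length, as transcripts-per-million values (TPM, counts per kb of exon scaled to the same sum in every library). The length is that annotated for the whole gene, not that of the transcript expressed, so the order of genes also depends on the annotation. In wild-type cells the order by mean TPM was Hes1 (126), Hes5 (96.0), Dll1 (93.5), Notch2 (66.4), Notch3 (61.2), Jag1 (52.8), Notch1 (43.0), Dll3 (26.9), Hey1 (21.2) and Dll4 (2.12). Because the wild-type libraries spread widely, neighbours in this order overlapped except Hes1 with Hes5, Dll1 with Notch2, and Hey1 with Dll4. In Zfp57-/- cells Hes1 stayed at the top with 110 TPM and was followed by Notch2 (43.1), Notch3 (26.7), Jag1 (18.2), Notch1 (13.9), Dll1 (12.1), Hey1 (9.0), Dll3 (4.65), Hes5 (2.21) and Dll4 (0.106), with no overlap between neighbours. Hes5 thus went from rank 2 to rank 9 and Dll1 from rank 3 to rank 6.

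Ratios of TPM within a library do not depend on how libraries are scaled. For every pair of genes compared the ratio differed between genotypes without overlap. Some pairs share a gene, and 66.3% of all single genes tested did not overlap either. With 2 against 2 libraries an exact two-sided permutation test cannot give a p below 0.333. The ratio of Hes5 to Hes1 was 0.803 and 0.727 in wild-type and 0.0249 and 0.0163 in Zfp57-/- libraries. Hes1 made up 51.7% ± 3.54 (SD, n = 2) of the summed TPM of the 3 targets in wild-type and 90.6% ± 2.42 (n = 2) in Zfp57-/- cells. The share of Hey1 in that sum overlapped between genotypes, at 8.78% ± 3.49 in wild-type and 7.59% ± 1.92 in Zfp57-/- cells. Dll1 was 1.81 ± 0.25 times Jag1 in wild-type cells and 0.662 ± 0.09 times Jag1 in Zfp57-/- cells, so that the more abundant of these ligands changed from Dll1 to Jag1. The ratio of Dll1 to Notch1 went from 2.25 ± 0.39 to 0.872 ± 0.12. Among the receptors, Notch1 was 0.639 ± 0.06 times Notch2 in wild-type cells and 0.322 ± 0.02 times Notch2 in Zfp57-/- cells, and the ratio of Hey1 to Hes1 went from 0.172 ± 0.08 to 0.0841 ± 0.02 (SD, n = 2 in each case). The summed TPM of the 4 ligands was 175 ± 46.4 in wild-type cells and 35.1 ± 2.27 in Zfp57-/- cells, while that of the 3 receptors was 171 ± 59.9 and 83.7 ± 3.77 (SD, n = 2).

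The genes whose profile over the 4 libraries was most like that of Hes5, by Euclidean distance between mean-centred log2 CPM over 15687 genes, were Brsk2 (distance 0.0395), Onecut2 (0.126), Ptpro (0.158), Prmt8 (0.185) and Scg3 (0.220). Onecut2 encodes a transcription factor and Scg3 a secretory granule protein. Their log2 fold changes lay between -4.83 and -5.35, close to the -5.16 of Hes5, which follows from how they were picked.

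The wider pathway was described by a list of 90 genes that includes the 10 above. Of the other 80 genes, 77 passed the filter on low counts, and 26 of these fell, 7 rose and 44 did not pass the test, beside 14.6% lower and 13% higher over all genes tested. The median log2 fold change was -0.32 beside -0.01 over all genes tested. Over the whole list 34 genes fell and 7 rose, and when libraries were scaled to Actb 32 fell and 0 rose, while over all genes the number that rose went from 2607 to 486. When Zfp57-/- replicate 1 was left out, 22 genes of the list fell and 0 rose, and over all genes 1551 fell and 1280 rose.

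Of the 9 proneural and related factors that act upstream of the Delta ligands, 8 passed the filter and 6 fell, with a median log2 fold change of -4.23. Over all genes tested 14.6% were lower and 13% higher. Atoh1, which specifies granule neurons and other dorsal hindbrain lineages, had 270 and 423 counts in wild-type libraries, against 0 and 2 in Zfp57-/- libraries, a ratio of 357 with a counting interval of 98.4 to 2952. Neurog2 had 113 and 174 counts against 4 and 4 (log2 fold change -5.15, adjusted p = 3.15e-05), and Neurog1 78 and 142 against 6 and 5 (-4.30, adjusted p = 0.00016). Both are proneural factors of the cortex. Insm1, which promotes basal progenitors, had 289 and 410 counts against 22 and 18 (-4.15, adjusted p = 1.02e-05). These 4 genes were named by a rule that required no overlap between genotypes, so their lack of overlap is not a result. Neurod4, which also fell (-3.14), was named after its values were seen.

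Of the 7 non-canonical ligands 5 fell, beside 14.6% lower over all genes tested. Cntn1, a neuronal adhesion molecule, had 400 and 251 counts in wild-type libraries, against 12 and 17 in Zfp57-/- libraries (log2 fold change -4.58, adjusted p = 5.53e-05). Cntn6, of the same family, had 20 and 13 counts against 1 and 0, a ratio of 34.0 with a counting interval of 5.69 to 1382, and its call was lost without Zfp57-/- replicate 2 (adjusted p = 0.0835). The other 3, named after their values were seen, were Dner (-3.83), Mfap2 (-3.16) and Dlk1 (-1.68). Jag2, the canonical ligand left out of the 10 genes, had 309 and 306 counts against 273 and 276, and its groups overlapped (log2 fold change -0.23, adjusted p = 0.479). Without wild-type replicate 2 Jag2 passed the test as lower (-0.41, adjusted p = 0.0423), and without wild-type replicate 1 it was at -0.050.

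The receptor Notch4, an endothelial gene, had 26 and 41 counts in wild-type libraries, against 43 and 42 in Zfp57-/- libraries (log2 fold change 0.32, adjusted p = 0.630). Rbpj, the DNA-binding partner of cleaved Notch, had 1206 and 1284 counts against 1601 and 1626 (0.31, adjusted p = 0.257), and its 2 Zfp57-/- libraries were above both wild-type libraries. Rbpj passed the test as higher without wild-type replicate 1 (0.44, adjusted p = 0.00446) and with the gene-length correction (0.62, adjusted p = 0.0387), while on the Actb scale Rbpj was at -0.42 and Notch4 at -0.30, both above the median of all genes there (-0.68). Of the 7 helix-loop-helix targets that passed the filter 4 fell, beside 14.6% lower over all genes tested. They were Hes5, Hey1, Heyl and Hes6, and Hes6 (-0.79) was named after its value was seen. Heyl, a further target of the Hey family, had 26 and 33 counts against 0 and 2, a ratio of 30.4 with a counting interval of 8.04 to 257.

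The remaining classes process the signal between ligand and target. Their counts are small and, beside 14.6% lower and 13% higher over all genes tested, are given as a description of single genes. Of 10 ADAM and gamma-secretase genes 2 fell, of 9 nuclear complex genes 1 fell and 2 rose, and of 13 co-repressors 2 fell and 1 rose. Among the 12 inhibitors and turnover factors 4 fell and 2 rose, among the 6 glycosylation genes 2 fell and 1 rose, and among the 6 genes of ligand ubiquitination and endocytosis 2 fell and 1 rose. The genes behind these counts were named after their values were seen. Those that fell were Adam10 and Aph1b (cleavage), Maml2 (nuclear complex), Hdac2 and Tle1 (co-repressors), Dtx3, Dtx4, Llgl1 and Nrarp (inhibitors), Lfng and Mfng (glycosylation), and Mib1 and Neurl1b (ubiquitination). Nrarp, an inhibitor that is itself induced by Notch, had 303 and 330 counts in wild-type libraries, against 87 and 115 in Zfp57-/- libraries (log2 fold change -1.71). Lfng, which modifies Notch so that it favours Delta ligands, had 177 and 225 against 61 and 84 (-1.52). Dtx4 and Mfng fell further than these 2 genes. Dtx4 had 1625 and 2799 counts against 174 and 168 (-3.71), and Mfng 169 and 206 against 49 and 38 (-2.15). Those that rose were Kat2a, Kat2b, Ctbp2, Dtx1, Dtx3l, Eogt and Neurl1a, by 0.59 to 1.45 on the log2 scale. Kat2a, Neurl1a and Dtx3l lay close to the threshold (adjusted p = 0.0497, 0.0498 and 0.0443 by edgeR). The number that rose was 4 with DESeq2 and 1 at an adjusted p of 0.01.

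**Figure D3:**
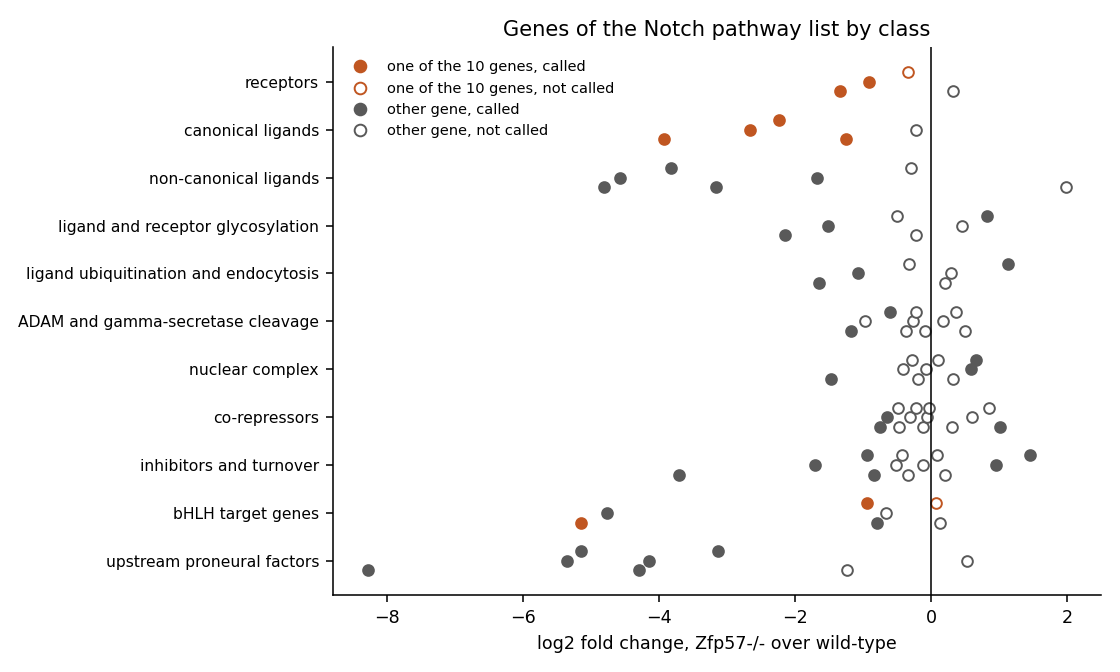
Log2 fold change (Zfp57-/- over wild-type) of the 87 genes of the Notch pathway list that passed the filter, by class, orange for the 10 genes described in full and filled where the adjusted p was below 0.05. Most large negative values belong to ligands, targets and proneural factors, and the cleavage, nuclear and co-repressor classes cluster near 0.

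Because the cells are JF1 by B6 hybrids, reads over strain variants were assigned by the study to the maternal JF1 or the paternal B6 allele. The allelic ratio, JF1 reads over the sum of JF1 and B6 reads, was 0.5 for the median autosomal gene in both wild-type libraries and 0.491 and 0.489 in the Zfp57-/- libraries. An edgeR fit with a term for each library gave the JF1 to B6 bias in each genotype and the difference between genotypes over 13435 autosomal genes. Of the 10 Notch genes 9 could be tested, with 361 to 5200 allelic reads, and Dll4 had 0 allelic reads in all 4 libraries. Of these 9, 1 was biased in wild-type (20.4% of all genes tested), 1 in Zfp57-/- cells (19.7%, of which toward B6 11.3%), and 1 differed between genotypes (12.2%).

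Notch3 was the gene that differed. In wild-type libraries 514 of 757 and 393 of 561 allelic reads came from JF1, ratios of 0.679 (95% Wilson interval 0.645 to 0.711) and 0.701 (0.661 to 0.737). In Zfp57-/- libraries 215 of 413 and 202 of 402 reads came from JF1, ratios of 0.521 (0.472 to 0.568) and 0.502 (0.454 to 0.551). The intervals, which cover counting error only, did not overlap between genotypes. The bias toward JF1 was 1.15 on the log2 scale in wild-type (SE 0.11, adjusted p = 3.27e-23) and 0.07 in Zfp57-/- cells (SE 0.12, adjusted p = 0.791), a difference of -1.08 (SE 0.17, adjusted p = 3.07e-09). The difference passed the test in every alternative run, from -1.01 to -1.16.

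Scaled to the bulk library sizes, the JF1 reads of Notch3 went from 50.6 ± 18.5 CPM in wild-type to 21.9 ± 1.72 CPM in Zfp57-/- cells (SD, n = 2), which is 43.2% of the wild-type mean, without overlap. The B6 reads went from 23.1 ± 9.94 to 20.8 ± 0.57 CPM, or 90.4% of the wild-type mean, and overlapped between genotypes. Most of the difference in Notch3 reads between the genotypes was thus in reads of the JF1 allele.

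Some genes around Notch3 differed between genotypes as well. The 15 nearest genes with enough reads, all within 679 kb, had a median ratio of 0.512 in wild-type cells and 0.477 in Zfp57-/- cells, and 5 of them (Cyp4f16, Rrp1b, Sik1, Wiz and Zfp871) differed between genotypes, 4 with a lower JF1 share in Zfp57-/- cells. Within 3000 kb, 37 of 82 genes differed, 36 of them toward a lower JF1 share, against 8.8% of all genes tested. Over the whole of chromosome 17, 126 of 615 genes (20.5%) differed, against 11.8% on the other autosomes. Zfp57 lies on the same chromosome, 4862 kb from Notch3. Whether the change at Notch3 belongs to the gene or to this stretch of the chromosome was not tested.

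**Figure D4:**
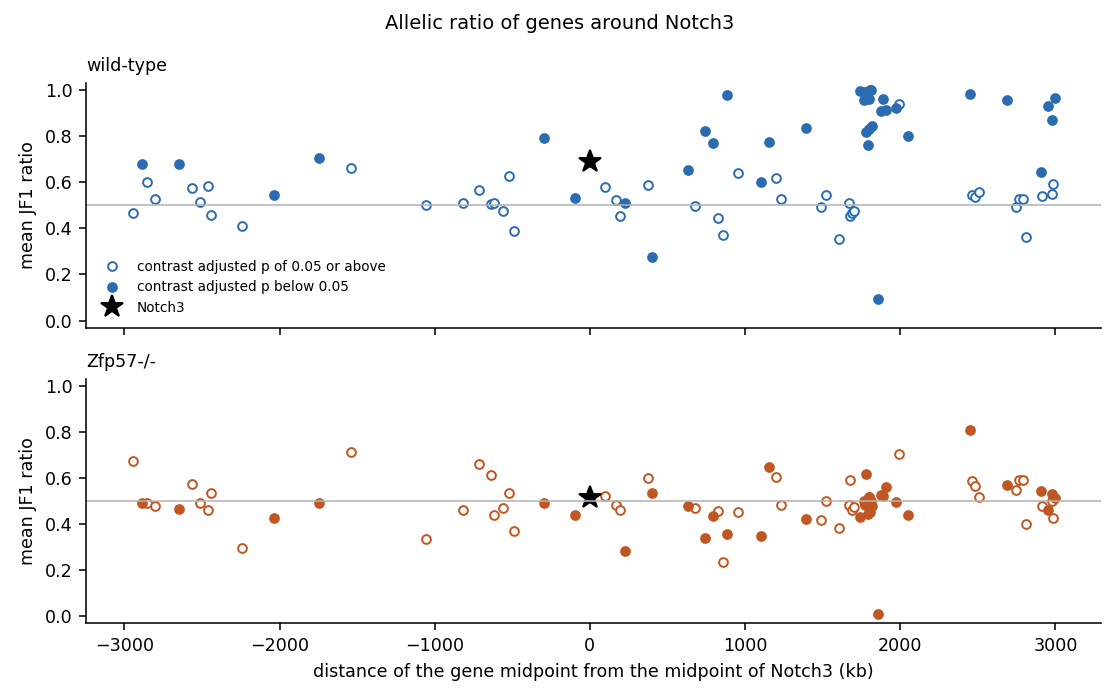
Mean JF1 ratio of 2 libraries for each gene within 3000 kb of Notch3 (star), by distance from Notch3 in kb, wild-type above and Zfp57-/- below, filled where the genotypes differed at an adjusted p below 0.05. In wild-type cells a group of genes to the right of Notch3 lies near a ratio of 1, and in Zfp57-/- cells most of these lie near 0.5.

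None of the other 8 genes passed the test of the difference between genotypes. Notch2, with the most allelic reads, had ratios of 0.450 and 0.500 in wild-type libraries and 0.485 and 0.433 in Zfp57-/- libraries. Its bias toward B6 passed the test in Zfp57-/- cells (log2 JF1 over B6 -0.24, SE 0.08, adjusted p = 0.0211) and not in wild-type (-0.15, adjusted p = 0.194), but the difference between genotypes was -0.09 (SE 0.11, adjusted p = 0.773). The call in Zfp57-/- cells was lost with DESeq2 (adjusted p = 0.36), with TMM scaling between alleles (adjusted p = 0.130) and without Zfp57-/- replicate 2 (adjusted p = 0.648).

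Notch1 had mean ratios of 0.502 in wild-type cells and 0.488 in Zfp57-/- cells, Dll1 of 0.529 and 0.510, Jag1 of 0.528 and 0.532, and Hes1 of 0.536 and 0.534. For the first 3 of these genes, whose levels fell, the difference in log2 JF1 over B6 was -0.08 (SE 0.17), -0.10 (SE 0.28) and 0.03 (SE 0.28). For Hes5, ratios of 0.488 and 0.465 in wild-type rested on 211 and 303 reads, but those in Zfp57-/- cells rested on 9 and 5 reads and had intervals of 0.121 to 0.646 and 0.376 to 0.964, so that no difference in allelic share was detectable at this depth. For Dll3 the Zfp57-/- libraries gave 0.793 (0.616 to 0.902) and 0.387 (0.237 to 0.562) from 29 and 31 reads. These 2 replicates disagreed beyond counting error, and the genotype difference of Dll3 did not pass the test (0.49, SE 0.48, adjusted p = 0.689). Without Zfp57-/- replicate 2, which leaves the 29 reads of replicate 1, Dll3 passed the test for bias toward JF1 in Zfp57-/- cells (1.92, adjusted p = 0.0163) and for the genotype difference (1.91, adjusted p = 0.0298). Hey1 had ratios of 0.567 and 0.555 in wild-type libraries and 0.573 and 0.394 in Zfp57-/- libraries. No allelic value could be given for Dll4 itself, but its 15 nearest genes, the farthest of them 3651 kb away, had a median ratio of 0.696 in wild-type cells and 0.500 in Zfp57-/- cells. Over the 31 nearest genes the wild-type median was 0.559.

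**Figure D5:**
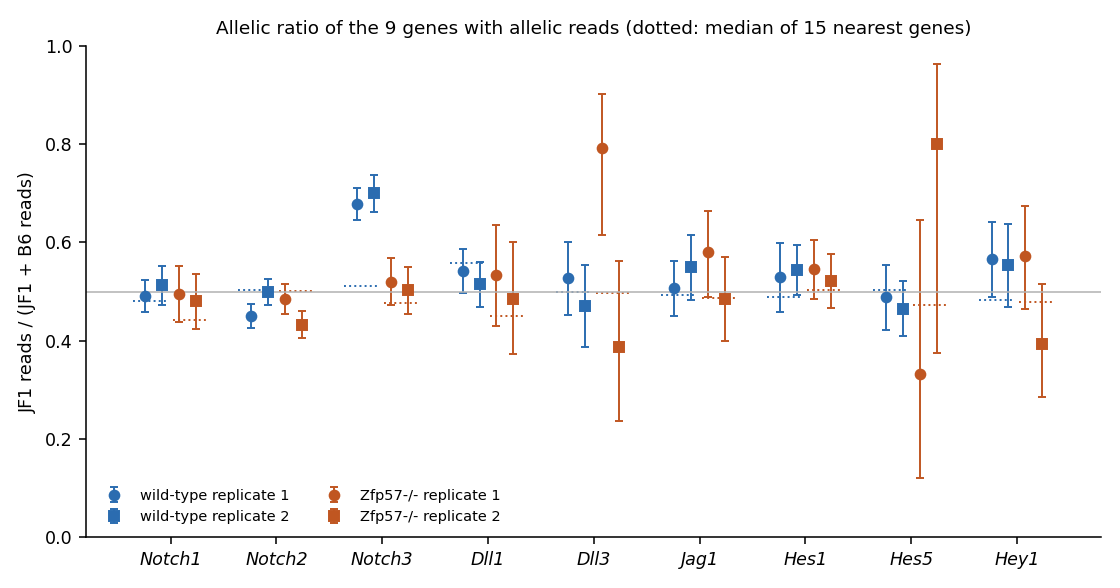
JF1 share of allelic reads for the 9 Notch genes with allelic reads in each of the 4 libraries, with 95% Wilson intervals (counting error only), and dotted lines at the median of the 15 nearest genes in each genotype. Only Notch3 in the wild-type libraries, at 0.679 and 0.701, stands apart from the Zfp57-/- libraries in both replicates with no overlap of intervals.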

How the data were processed

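Total RNA, depleted of ribosomal RNA, was sequenced as stranded paired-end libraries. According to the submitters' processing notes the tools included Trimmomatic 0.36, STAR 2.5.4a and featureCounts of Subread 1.6.0, on GRCm38. The authors deposited a bulk table of fragment counts per gene (GENCODE vM20), without normalization, and an allele-specific table of counts in which reads were split between JF1 and B6. Counting used the strand, so that antisense genes are kept apart, and gene coordinates are those of the files.

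Identifiers were matched to symbols for 54721 of 55602 genes. The bulk comparison used edgeR 4.0.16 (R 4.3.3) with TMM factors, a robust quasi-likelihood test, genotype as the only term and genes with more than 8 summed counts. The allelic comparison used autosomal genes with at least 20 allelic reads, the summed library size of both alleles and a term per library. Total allelic reads were 2837013 to 3826604 per library. Neighbouring genes needed 10 reads in each library. Intervals of ratios are Wilson intervals at 95% and cover counting error only, since the reads carry no molecular identifiers. For genes with at most 3 counts per library in a genotype, ratios with exact intervals are given. The tests were tested on simulated data. Python 3.11.15, pandas 2.3.3, scipy 1.17.1 and matplotlib 3.10.9 were used.

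The 10 genes, the pathway list and the marker lists were chosen with earlier results of these data known. All 10 genes are named, as are the 10 genes of the whole pathway list with the largest fold change among those past the threshold without overlap, Rbpj, Jag2 and Notch4, the 5 genes most like Hes5 (mean CPM of at least 1), the most abundant markers, Zfp57 and Actb. One gene that this rule picks is not reported here. Alternatives were DESeq2 1.42.0, its size factors, upper-quartile and Actb scaling, no filter and a stricter filter (1 CPM in 2 libraries), a gene-length correction, a replicate block, an adjusted p of 0.01, other read minimums (40 or none), TMM between alleles, pooled ratios, 31 neighbours and each library left out. A lone library was then assumed to vary like the other genotype. The day 0 cells and other assays of the study were not analysed here.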

Additional observations from a re-analysis of the deposited data

Results flagged for a closer look

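The JF1 to B6 ratio of Notch3 differed between the genotypes by the test of the difference itself: the log2 JF1 over B6 value was 1.15 in wild-type cells and 0.07 in Zfp57-/- cells, a difference of -1.08 (SE 0.17, adjusted p = 3.07e-09 by edgeR), with a lower JF1 share in both Zfp57-/- libraries than in both wild-type libraries. A difference was called for 12.2% of all genes tested.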

How the results depend on the processing

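Of 120 values of the 10 genes under the alternatives to the bulk comparison, 109 kept their direction and their side of the threshold, 6 lost their call, 1 gained one and 4 changed sign. The count of members that fell was 8, from 5 without Zfp57-/- replicate 1 to 9 without wild-type replicate 2 when libraries were left out, and the median of the 10 genes lay between -1.60 and -0.96. On the Actb scale that median was -2.09, while the median of all genes moved to -0.68 and calls over all genes went from 2915 lower and 2607 higher to 2994 lower and 486 higher. Leaving out a library gave 2831 to 9947 calls over all genes in place of 5522, 21 to 46 pathway genes lower in place of 34 (22 without Zfp57-/- replicate 1 and 21 without replicate 2) and 0 to 16 higher in place of 7 (16 without wild-type replicate 2, 1 without Zfp57-/- replicate 2). Higher pathway genes numbered 4 with DESeq2, 0 on the Actb scale and 1 at an adjusted p of 0.01. Changes of sign were found among values that were not called. Hes1 was at -0.57 on the Actb scale, -0.031 with the gene-length correction and -0.10 to 0.22 with libraries left out, and on the Actb scale Rbpj was at -0.42 and Notch4 at -0.30. The cause was not tested.

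In the allelic fits, the 1 call in Zfp57-/- cells (Notch2) was lost with DESeq2 (0 calls) and with TMM between alleles (0 calls). Without Zfp57-/- replicate 2 Notch2 was lost there and Dll3 gained, so the count stayed at 1, and the 1 call of a genotype difference became 2 without Zfp57-/- replicate 2, with Dll3 added. The log2 JF1 over B6 of Dll3 in wild-type was -0.0061 with DESeq2 and -0.023 with the replicate block, and with TMM between alleles Hey1 in Zfp57-/- cells was at 0.011 and the genotype difference of Hes1 at 0.032. With libraries left out, values in wild-type were -0.050 to 0.075 for Notch1 and -0.17 to 0.16 for Dll3. In Zfp57-/- cells they were -0.082 to 0.20 for Dll1, -0.66 to 1.92 for Dll3, -0.091 to 0.46 for Jag1, -0.97 to 1.86 for Hes5 and -0.62 to 0.42 for Hey1. The genotype difference ranged from -0.24 to 0.061 for Notch2, -0.25 to 0.029 for Dll1, -0.66 to 1.91 for Dll3, -0.24 to 0.32 for Jag1, -0.091 to 0.041 for Hes1, -0.83 to 2.00 for Hes5 and -0.97 to 0.069 for Hey1. Few allelic reads in Zfp57-/- cells limit Hes5. Dll3 had few reads there too, and its 2 Zfp57-/- replicates disagreed beyond counting error. Medians over genes within 500 kb, a choice made after seeing the data, were 0.524 and 0.483 around Notch3.

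The labels number the replicates of each genotype, but no source pairs them, and with 2 pairs the correlation of same-numbered deviations (0.157 over 15697 genes) does not establish a pairing. With the replicate number as a block, 8 of the 10 genes were lower, 34 pathway genes were lower and 9 higher, and 6984 genes were called in all.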

Other observations

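Of the 90 genes of the pathway list 76 could be tested for an allelic difference between the genotypes, and 9 passed the test, beside 12.2% of all genes tested. They were chosen for mention after their values were seen. Spen, a co-repressor that binds RBPJ, had a mean JF1 ratio of 0.980 ± 0.01 (SD, n = 2) in wild-type and 0.514 ± 0.02 (n = 2) in Zfp57-/- cells from 659 and 606 reads, and the median of its 15 nearest genes went from 1 to 0.438. Adam17, a protease that cleaves Notch receptors, went from 0.989 ± 0.02 to 0.523 ± 0.06 from 77 and 83 reads, while its neighbours had medians of 0.538 and 0.462. The bulk levels of Spen (log2 fold change -0.07, adjusted p = 0.834) and Adam17 (-0.22, adjusted p = 0.412) did not pass the test. Dlk1, an imprinted gene expressed from the paternal allele, had a ratio of 0.155 ± 0.01 in wild-type from 78 reads and 0.412 ± 0.38 in Zfp57-/- cells from 29 reads, where the replicates differed widely. The others were Nedd4 (0.512 to 0.435), Mycn (0.646 to 0.491), Neurl1b (0.868 to 0.447), Mfng (0.703 to 0.404) and Kat2b (0.555 to 0.395), besides Notch3.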
